A study of Homo sapiens with 12 samples.

Results

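The genes described here are 41 genes of the extracellular matrix and the basement membrane, taken by symbol from a table of 57773 gene identifiers: 15 collagen chains, 8 laminin chains, and 18 linker proteins, proteoglycans, glycoproteins and crosslinking enzymes. They were chosen by name, with earlier results of these data known, so the choice was not independent of these data. All 41 were found in the table. The cells were RPE1, an immortalised line derived from human retinal pigment epithelium, cultured in DMEM with serum. For 24 h they were exposed, with Lipofectamine RNAiMAX, to siRNA directed at Anillin or to a non-targeting siRNA labelled Random. Anillin (ANLN) is a scaffold of the contractile ring that divides a cell at the end of mitosis, and the study used its loss to make polyploid cells by failed cytokinesis. The cells were sorted alive by DNA content after Hoechst staining (2 µg/mL, 60 min, 37 °C). There were 4 groups of 3 RNA-seq libraries, control and Anillin siRNA at 2N and at 4N, all from this 1 line and all transfected. The series text calls the libraries of a group biological replicates, and no source used here says whether they came from separate cultures, so a p-value here covers the spread among libraries of a group, which may be technical.

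The extracellular matrix is the secreted scaffold around cells. Its basement membrane is a thin sheet of polymerised laminin and type IV collagen, tied together by nidogens and by the heparan sulfate proteoglycans perlecan and agrin. Laminins are trimers of an alpha, a beta and a gamma chain, and collagens are trimers of chains whose partner genes are usually expressed together. In the eye, the retinal pigment epithelium rests on Bruch's membrane and secretes part of it.

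Reads assigned to genes numbered 17412742 to 61760451 per library. ANLN was at 539, 477 and 510.5 reads per 1000000 reads (RPM) in the control 4N libraries and at 6.33, 5.47 and 4.48 in Anillin 4N. Its levels were 121, 80.0 and 106 in control 2N and 5.44, 3.72 and 2.53 in Anillin 2N, so it was lower in every library given its siRNA (log2 change -6.43 ± 0.17 in 4N and -4.58 ± 0.17 in 2N cells, log2 ± SE). Of 15 markers of retinal pigment epithelium, 10 were measured well enough to be tested: KRT8 (486 RPM in control 2N), KRT18, MITF and OTX2 were present, while TYR, TYRP1, DCT and TTR were at or near 0. Summed levels per library were 4.15 to 10.3 RPM over 7 endothelial markers, 34.9 to 46.8 over 8 blood markers, and 0.785 to 1.75 over 8 markers of other epithelia. Vimentin (VIM), at 6147 RPM in control 2N, made up most of the sum over 10 markers of fibroblasts and smooth muscle, which lay between 7809 and 9027 RPM, with DES at no more than 0.122. The 25 markers of G2 and mitosis summed to 1037 to 1509 RPM in control 2N and 7415 to 8299 in control 4N. The same sums were 392 to 420 in Anillin 2N and 1130 to 1235 in Anillin 4N.

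RPM relates the reads in a gene to all reads of its library and was recovered from the deposited RPKM values. Levels of different genes are compared only per kb of merged exons. The annotation used in counting was not given, and reads in introns, if counted, would raise genes with long introns on this scale. On that scale fibronectin led the matrix genes. FN1, the adhesive glycoprotein fibronectin, averaged 1058 RPM per exonic kb over the 12 libraries, SPARC, a secreted collagen-binding glycoprotein, 331, and VCAN, the large chondroitin sulfate proteoglycan versican, 131. Next in order were FBN1 (fibrillin, 90.8), LAMB1 (laminin beta 1, 83.9) and EFEMP1 (79.8), a fibulin-type glycoprotein found in Bruch's membrane. At the other end were LAMA1 (0.0167), COL1A2 (0.0190), COL6A2 (0.0208) and FBLN1 (0.0218), and these 4 were the only members too low to be tested.

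**Figure D1:**
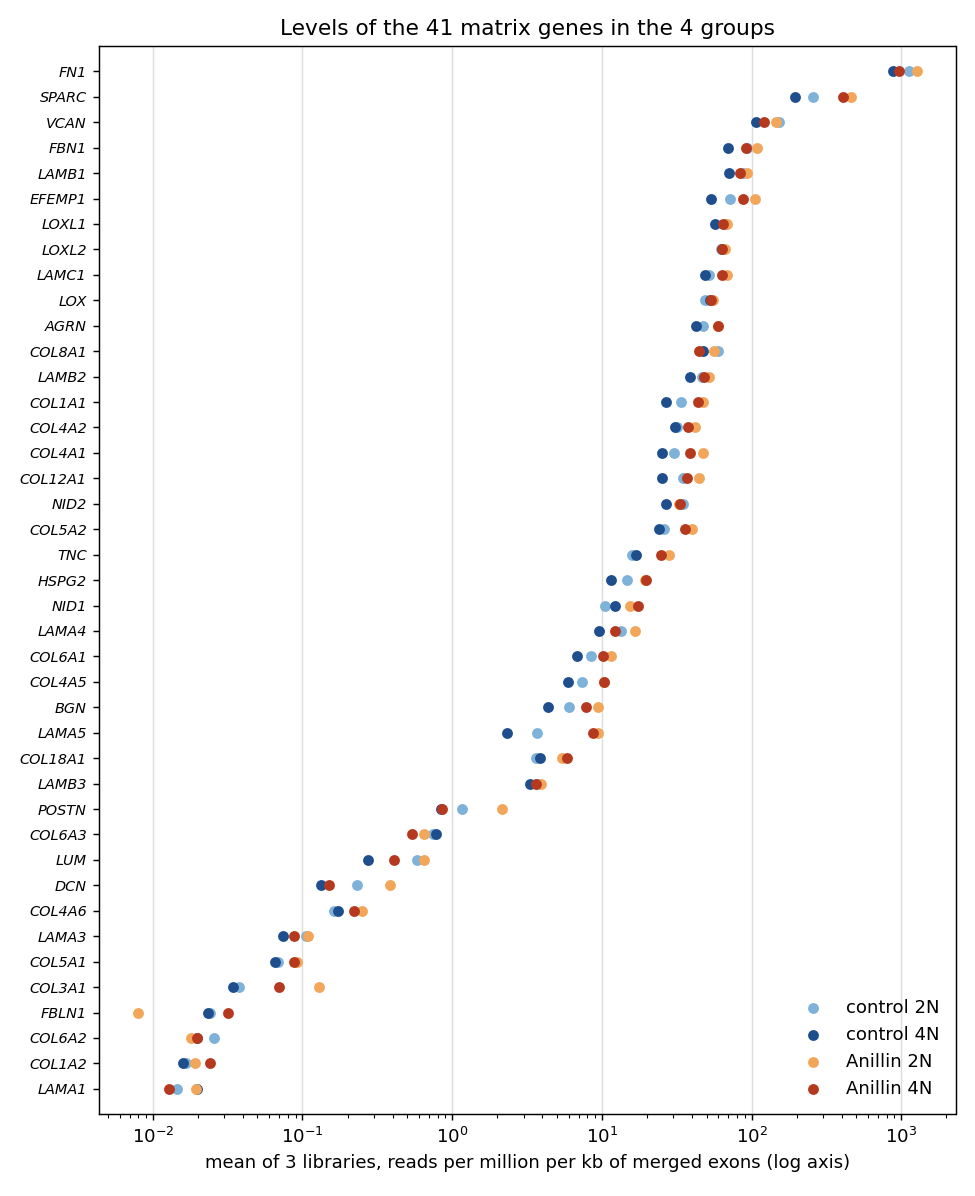
Mean level of each of the 41 matrix genes in the 4 groups (points, 3 libraries each), in RPM per kb of merged exons on a log axis, ordered by the mean over all 12 libraries. The levels span from FN1 at about 1058 to LAMA1 at 0.0167, and for most of the 37 tested genes the lowest point is control 4N.

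The 41 genes together took 2.19% to 4.13% of the reads in genes, and FN1 alone was 55.5% to 63.5% of their sum. That sum was 31420 ± 4269 RPM in control 2N, 24750 ± 1867 in control 4N, 36640 ± 3832 in Anillin 2N and 29600 ± 818 in Anillin 4N (mean ± SD, n = 3 libraries, as for all group levels here). Of the 37 tested matrix genes, 29 had their highest group mean in Anillin 2N, against 21.4% of all 19591 tested genes. Another count of 29 of 37 had their lowest mean in control 4N, against 36.4% of all tested genes.

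The matrix genes also varied together among the libraries of a group. In control 2N, replicate 2 was the highest of the 3 libraries for 29 of the 37 tested members, while it was the highest for 34.6% of all tested genes. Replicate 3 of Anillin 2N was the highest for 30 of 37 (32.2% of all genes), and replicate 1 of control 4N was the lowest for 28 of 37 (39.7% of all genes). Each of these libraries was the least deeply sequenced of its group, with 27991710, 22276820 and 24943099 reads, so the shallowest library was the highest for most members in 2 groups and the lowest in another. The G2 and mitosis marker sum was 1037 RPM in control 2N replicate 2, the lowest of its group, 8299 in control 4N replicate 1, the highest of its group, and 400 in Anillin 2N replicate 3, in the middle of its group. The part of depth and of cell cycle stage in this variation was not tested. Results that change without one of these libraries are given with the value without it.

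In cells sorted at 4N, most matrix genes were higher after Anillin siRNA. Of 37 tested, 23 rose and 1, COL6A3, fell, against 24.5% higher and 28.1% lower of all 19591 tested genes. The median log2 change was 0.37 over the 37 and -0.0016 over all genes. The rises took in 4 of 6 basement membrane and network collagens, 5 of 7 tested laminin chains, all 4 linkers and proteoglycans of the basement membrane, 3 of 5 fibrillar and associated collagens, both tested elastic fibre genes and 2 of 4 glycoproteins. They also took in 1 of 2 tested collagen VI chains, 1 of 4 small leucine-rich and large proteoglycans and 1 of 3 crosslinking enzymes. LAMA5 went from a mean of 33.2 to 124 RPM and SPARC from 948 to 1960. Every Anillin 4N library was above every control 4N library for 28 of the 37, and below for 2 (28.0% and 31.7% of all genes). Without the authors' scaling between libraries, 28 members were higher and 1 lower, while the share of higher genes among all called genes moved from 46.6% to 61.9%. All 24 of these calls held under each of the other settings in which the gene could be tested. Another 6 members were called higher under some of those settings. RNA was measured relative to each library's total, so fewer cells of a type and less RNA per cell cannot be told apart, and the 25 markers of G2 and mitosis, all lower in Anillin 4N (median log2 change -2.62), move with this contrast. Of the 9 tested markers of fibroblasts and smooth muscle, 4 were higher and 2 lower (median 0.17), with PDGFRA at 1.51 ± 0.20, ACTA2 at 0.33 ± 0.10, TAGLN at 0.30 ± 0.06 and THY1 at -0.69 ± 0.06. Of the 10 tested markers of retinal pigment epithelium, 4 were higher and 2 lower (median 0.14). The part of these marker lists in the matrix changes was not tested.

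In cells sorted at 2N, 24 of 37 matrix genes rose after Anillin siRNA and 0 fell by the limma test (29.7% of all genes were called, 12.6% higher and 17.0% lower). At an unadjusted p below 0.05, COL6A3 was lower as well, and limma-voom on the recovered reads called 1 gene lower, FBLN1, with at most 12 reads in a library. The median was 0.39, against -0.02 over all genes. The genes that rose included LAMA5 (from a mean of 52.8 to 134 RPM), SPARC (1250 to 2232), TNC, the matricellular protein tenascin-C (153 to 272), and 4 of the 5 tested fibrillar and associated collagens. Of those 4, COL3A1 passed the filter on low values only through its Anillin 2N libraries and 1 Anillin 4N library. In 22 of the 37 every Anillin 2N library lay above every control 2N library, and in 0 below (17.8% and 22.5% of all genes). The G2 and mitosis markers were lower here too, 25 of 25, with a median of -1.53. Of the fibroblast and smooth muscle markers 4 of 9 were higher and 2 lower (median 0.09), with PDGFRA at 0.85 ± 0.20, TAGLN at 0.48 ± 0.06 and PDGFRB at -0.47 ± 0.06. Of the 10 tested markers of retinal pigment epithelium, 1 was higher and 2 lower (median 0.02). Of the 24 calls, 19 held under every other setting in which the gene could be tested. Those of DCN, COL12A1, LAMA4, LOX and LAMB2 did not, and their values without single libraries are given with each gene.

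In control cells the 4N gate, which holds G2 and mitotic cells, had lower levels of most matrix genes than the 2N gate. Of the 37, 23 were lower in control 4N and 1, NID1, was higher (40.8% of all genes called, 21.3% higher and 19.5% lower), with a median of -0.30 against -0.0025 over all genes. All 4 proteoglycans (BGN, DCN, LUM and VCAN), both tested elastic fibre genes, 5 of 7 laminin chains and 3 of the 4 basement membrane linkers and proteoglycans were lower. Of the other roles, 3 of 6 basement membrane and network collagens, 2 of 5 fibrillar and associated collagens and 2 of 4 glycoproteins were lower. The same held for 1 of 2 tested collagen VI chains and 1 of 3 crosslinking enzymes. Also lower were 4 of the 9 fibroblast and smooth muscle markers, PDGFRA (-1.10 ± 0.20), PDGFRB (-0.77 ± 0.06), ACTA2 (-0.67 ± 0.10) and TAGLN (-0.33 ± 0.06), while THY1 and VIM were higher. Of the 10 tested markers of retinal pigment epithelium, 5 were lower and 0 higher (median -0.20). Control 4N libraries were all below control 2N for 21 of 37 and all above for 1 (24.8% and 26.0% of all genes). Without the authors' scaling, 24 were lower and 1 higher, while the share of higher genes among all called genes moved from 52.1% to 38.8%. Of the 24 calls, 17 held under every other setting in which the gene could be tested, and the exceptions were DCN, LAMA3, FN1, COL4A1, COL4A5, AGRN and NID1.

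Between the 2 fractions of Anillin siRNA cells, 6 matrix genes (POSTN, DCN, LAMA4, COL8A1, COL4A1 and EFEMP1) were lower at 4N than at 2N and 0 were higher by limma, where 5.57% of all genes were called, 3.38% higher and 2.19% lower. At an unadjusted p below 0.05, NID1 was higher and 20 members were lower, and limma-voom on the recovered reads called 1 higher (FBLN1) and 7 lower. The median was -0.16, against 0.01 over all genes. Of the 37, 18 had every Anillin 4N library below every Anillin 2N library and 1, COL18A1, had every library above (11.1% and 13.2% of all genes). ACTA2 (-0.71 ± 0.10) and TAGLN (-0.51 ± 0.06) were the 2 fibroblast and smooth muscle markers called, both lower. Of the 10 tested markers of retinal pigment epithelium, 0 were called (median -0.20). Without Anillin 2N replicate 2 there were 3 lower members, and without Anillin 2N replicate 3 there were 3, with NID1 then higher (limma adjusted p = 0.00627). Leaving out control libraries, which enter this comparison only through the shared spread and its trend, gave 4 to 9, with COL12A1, FN1 and LUM added without control 2N replicate 2. The 3 that held under every other setting in which they could be tested were POSTN, DCN and COL8A1. These 4 comparisons share groups in pairs, so their counts are not independent of each other.

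**Figure D2:**
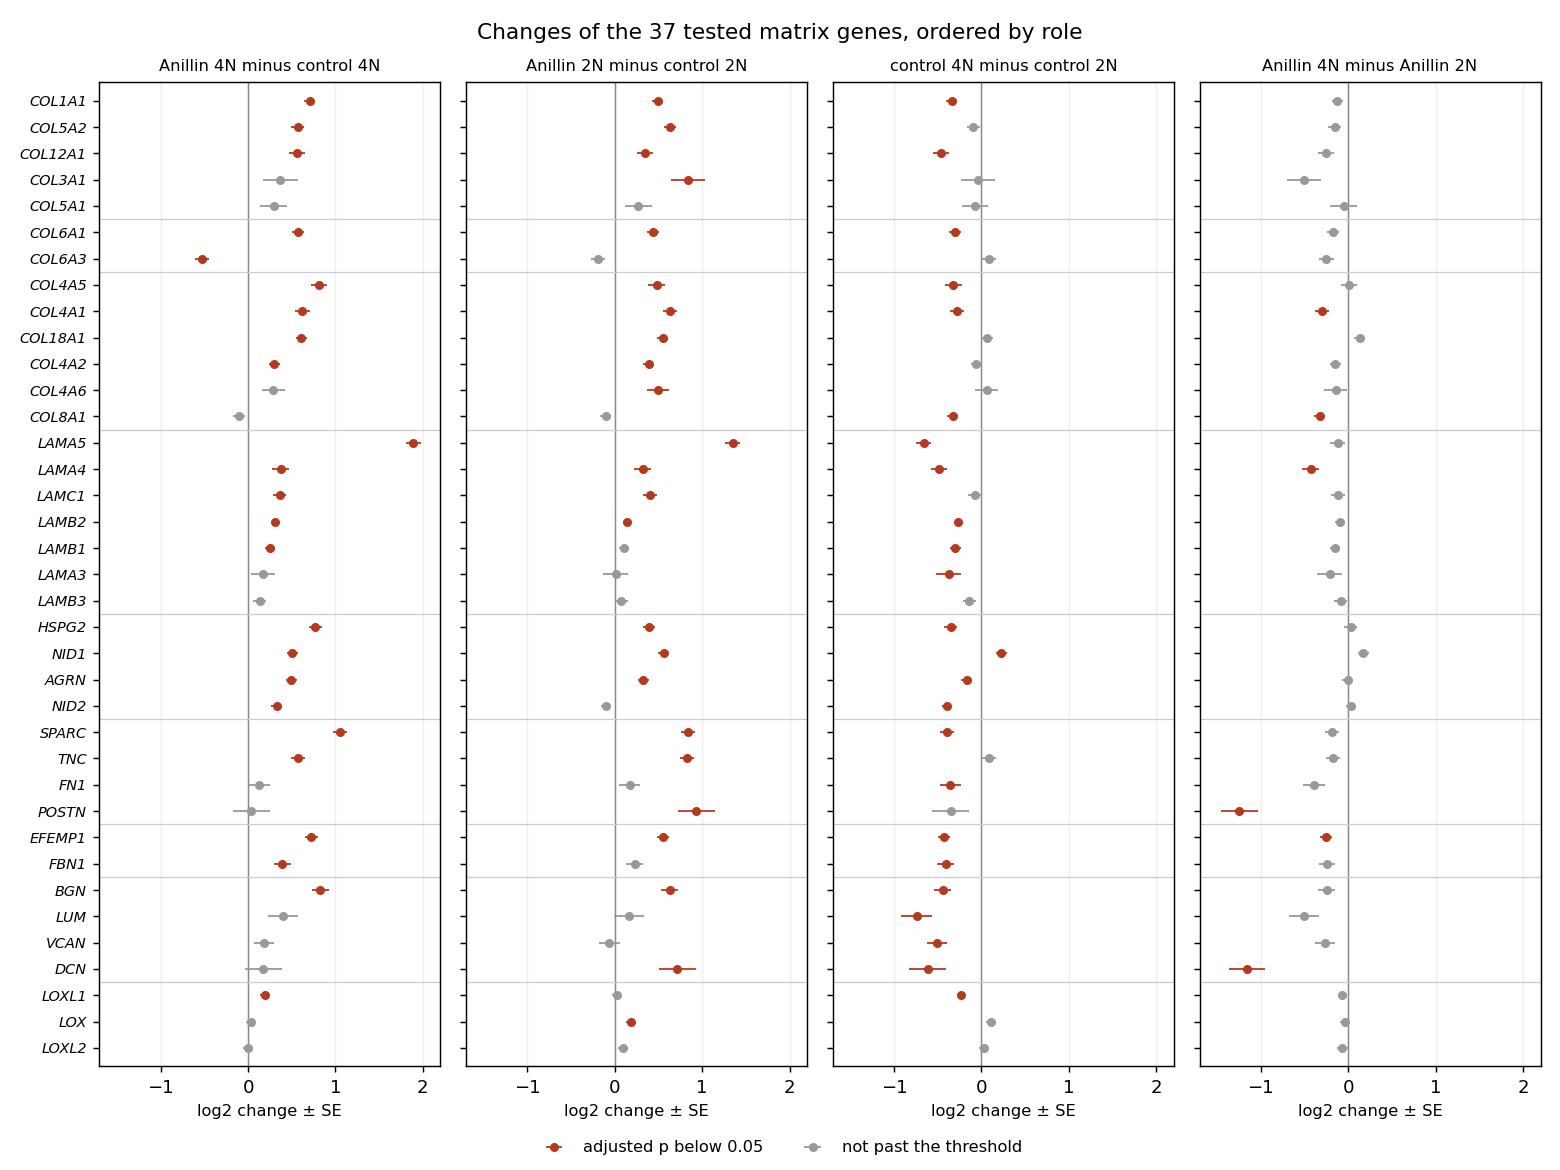
Log2 change ± SE of the 37 tested matrix genes in 4 comparisons, ordered by role, with genes past an adjusted p of 0.05 in red. Most points lie to the right of 0 in both siRNA comparisons (23 and 24 genes higher) and to the left of 0 in control 4N against control 2N (23 genes lower).

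Whether the siRNA changed a gene differently in 4N than in 2N cells was tested as an interaction, the 4N change minus the 2N change. It passed for 4 of 37 matrix genes, 3 upward and 1 downward (18.5% of all genes called, 7.94% upward and 10.6% downward). These were LAMA5, NID2, HSPG2 and POSTN. Counting both directions, the share of members called was below that of all genes. Without control 2N replicate 2 the count was 7 (3 upward and 4 downward, with DCN at -0.83, TNC at -0.36 and COL6A3 at -0.40 added, limma adjusted p 0.0181, 0.00946 and 0.0226). Without the authors' scaling it was 8 upward and 0 downward, and after quantile scaling 9 upward and 1 downward. Those scalings moved the share of upward calls among all called genes from 42.8% to 64.3% and 53.8%. The upstream sequences of the 4 genes are shown because the set holds both the basement membrane genes whose change was greater at 4N and the gene whose change was smaller. Each runs 5′ to 3′ on the gene's strand (minus for all 4), in GRCh38.p14. The stretches of LAMA5 and HSPG2 end just before the RefSeq start of the gene. For NID2 and POSTN the bases next to that start, 169 and 76, lie inside annotated exons and are left out. Those 2 stretches therefore end that far upstream of the start. Capitals mark matches, on either strand, to the GC box GGGCGG, the TATA box TATAAA, the AP-1 motif TGANTCA or the motif TTTGAA, the core of the cell cycle genes homology region (CHR).
LAMA5, chr20:62367313-62367562: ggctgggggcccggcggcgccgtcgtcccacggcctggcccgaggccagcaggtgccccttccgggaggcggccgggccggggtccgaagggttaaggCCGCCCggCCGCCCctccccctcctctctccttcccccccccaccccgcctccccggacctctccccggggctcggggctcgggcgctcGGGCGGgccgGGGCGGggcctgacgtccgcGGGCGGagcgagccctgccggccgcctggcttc
HSPG2, chr1:21937311-21937560: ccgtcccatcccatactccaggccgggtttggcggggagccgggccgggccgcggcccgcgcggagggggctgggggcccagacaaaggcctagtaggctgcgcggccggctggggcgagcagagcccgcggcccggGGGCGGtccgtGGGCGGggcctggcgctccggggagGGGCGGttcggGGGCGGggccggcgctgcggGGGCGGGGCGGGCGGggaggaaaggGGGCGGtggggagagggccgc
NID2, chr14:52069229-52069309: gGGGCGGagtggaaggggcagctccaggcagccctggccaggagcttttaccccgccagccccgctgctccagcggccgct
POSTN, chr13:37598845-37599018: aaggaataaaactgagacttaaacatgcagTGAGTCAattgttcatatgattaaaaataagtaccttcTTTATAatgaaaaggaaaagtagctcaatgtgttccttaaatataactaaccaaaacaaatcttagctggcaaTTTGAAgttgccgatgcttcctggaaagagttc
The LAMA5 and HSPG2 stretches, of 250 bases each, were both 82.8% G and C, with 5 and 8 GC boxes (overlapping matches counted). That of NID2, cut to 81 bases, was 74.1% with 1, so its count cannot be set against theirs. The POSTN stretch, cut to 174 bases, was 32.2% G and C and held a TATA box, an AP-1 match and a CHR match. RefSeq windows of 250 bases before the start were found for 29 of the 41 genes, 36 windows in all. GGGCGG lay in those of 22 members (42.6% of all 35116 windows), CCAAT of 9 (32.0%), TATAAA of 3 (10.7%), TTTGAA of 3 (13.3%), TGANTCA of 3 (6.6%), GGAATG, a TEAD motif, of 3 (11.9%), and CACGTG, an E-box, of 0 (6.3%). A member is counted if any of its windows matches, while the shares in brackets are of single windows, so the counts and shares are unlike measures. A match describes letters only, not a bound site.

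LAMA5 (ENSG00000130702, chromosome 20 from 62307955 to 62367312 on the minus strand, as annotated by GENCODE 29 on GRCh38) encodes laminin alpha 5, the alpha chain of several epithelial and vascular laminins. Its levels were 45.9, 59.9 and 52.6 RPM in control 2N and 28.8, 35.9 and 35.0 in control 4N. After Anillin siRNA they were 133, 131 and 139.7 at 2N and 128, 126 and 117 at 4N. All 6 Anillin libraries lay above all 6 controls, and control 4N lay below control 2N. The change was 1.89 ± 0.08 in 4N cells (limma adjusted p = 1.48e-12) and 1.35 ± 0.08 in 2N cells (limma adjusted p = 1.53e-09), with an interaction of 0.54 ± 0.12 (limma adjusted p = 0.00387). In control cells the 4N fraction was lower, at -0.66 ± 0.08 (limma adjusted p = 5.92e-06). On the deposited RPKM scale the interaction was 0.29 (limma adjusted p = 0.0591). The gene overlaps ADRM1 over 908 bases on the other strand, and since no source used here states strand use in counting, reads in that stretch cannot be assigned. ADRM1 averaged 59.4 RPM and had a log2 change of -0.43 in 4N cells.

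HSPG2 (ENSG00000142798, chromosome 1 from 21822245 to 21937297 on the minus strand) encodes perlecan, the large heparan sulfate proteoglycan of basement membranes. Its levels were 253, 278 and 264 RPM in control 2N, 194, 200.1 and 231 in control 4N, 325, 326 and 396 in Anillin 2N, and in Anillin 4N 354, 348 and 362. The Anillin libraries were all above the controls, and only among the controls was 4N below 2N. HSPG2 rose by 0.77 ± 0.07 at 4N and 0.39 ± 0.07 at 2N, and the interaction was 0.38 ± 0.10 (limma adjusted p = 0.0152). Without control 4N replicate 1 the interaction missed the threshold (limma adjusted p = 0.0512), as it did on deposited RPKM (0.0723) and with no filter on low values (0.0754).

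NID2 (ENSG00000087303, chromosome 14 from 52004803 to 52069228 on the minus strand) encodes nidogen 2, which links laminin to type IV collagen. It stood at 221, 237 and 213 RPM in control 2N and 163, 175 and 172 in control 4N, and at 193, 209 and 227 in Anillin 2N, and in Anillin 4N 213, 209.7 and 217. The control 4N libraries were below those of every other group, which overlapped. NID2 rose by 0.33 ± 0.06 at 4N (limma adjusted p = 0.000101), had a change of -0.10 ± 0.06 at 2N (limma adjusted p = 0.234), and its interaction of 0.42 ± 0.08 (limma adjusted p = 0.00139) held under every other setting. It overlaps RTRAF (98.1 RPM) over 5889 bases on the other strand.

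POSTN (ENSG00000133110, chromosome 13 from 37562583 to 37598844 on the minus strand) encodes periostin, a matricellular protein of collagen-rich tissue. Its levels were 5.19, 10.0 and 3.90 RPM in control 2N, 3.97, 5.81 and 3.99 in control 4N, 10.7, 12.2 and 12.4 in Anillin 2N, and in Anillin 4N 4.14, 5.14 and 4.74. Anillin 2N was above every other library, and control 2N replicate 2 stood well above the other control 2N libraries. POSTN rose by 0.94 ± 0.21 at 2N (limma adjusted p = 0.00242), differed by -1.25 ± 0.21 between Anillin 4N and Anillin 2N (limma adjusted p = 0.000929), and had a change of 0.04 ± 0.21 at 4N (limma adjusted p = 0.892). Between the control fractions its difference of -0.35 ± 0.21 passed without control 2N replicate 3 (-0.62, limma adjusted p = 0.0169). Its interaction of -0.90 ± 0.30 (limma adjusted p = 0.0441) missed the threshold when any single library other than control 2N replicate 2 was left out, with limma adjusted p from 0.0508 without control 4N replicate 1 to 0.108 without control 2N replicate 3.

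**Figure D3:**
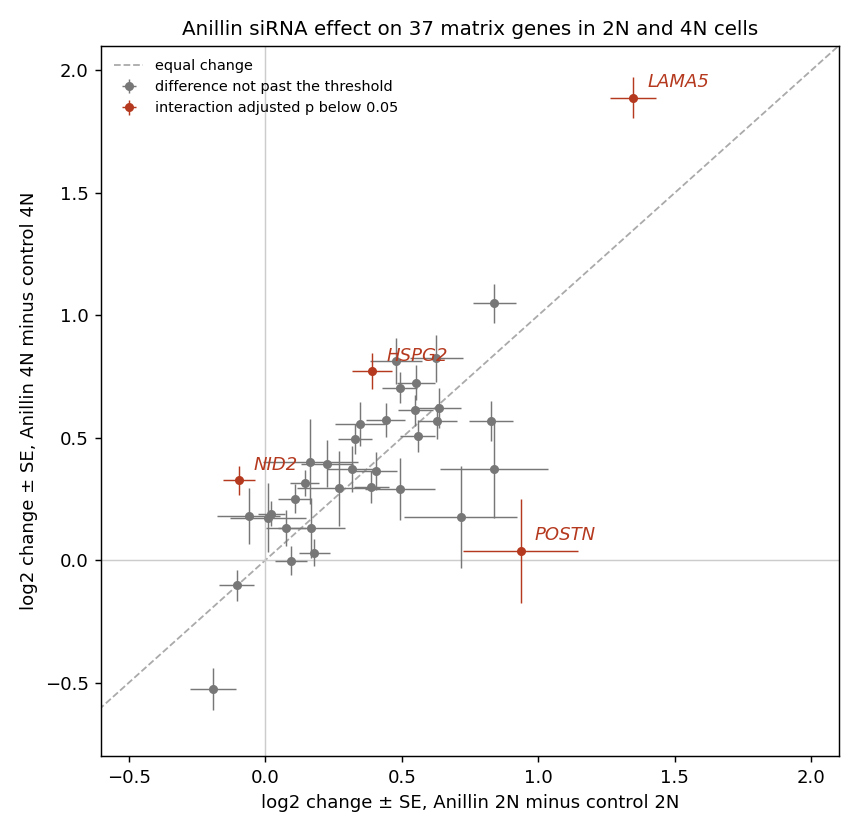
Change after Anillin siRNA in 4N cells (vertical axis) against that in 2N cells (horizontal axis) for the 37 tested matrix genes, log2 ± SE, with a dashed line of equal change. LAMA5, HSPG2 and NID2 lie above the line and POSTN below it (red, interaction past an adjusted p of 0.05).

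Among the fibrillar and associated collagens, single chains were abundant while their usual partners were nearly absent. COL1A1 (ENSG00000108821, chromosome 17 from 50183289 to 50201632 on the minus strand) encodes the alpha 1 chain of type I collagen, the main fibre-forming collagen. It was at 332 ± 18.8 RPM in control 2N, 263 ± 24.5 in control 4N, 467 ± 21.5 in Anillin 2N and 427 ± 14.1 in Anillin 4N, a rise of 0.70 ± 0.06 at 4N and 0.49 ± 0.06 at 2N. Its partner chain COL1A2 had 10, 4 and 12 reads in the control 2N libraries, 3, 10 and 8 in control 4N, 8, 14 and 3 in Anillin 2N, and in Anillin 4N 2, 9 and 8, below 0.5 RPM throughout. Likewise COL5A2, a type V chain that nucleates fibrils, was at 181 ± 4.50 RPM in control 4N and 268 ± 6.77 in Anillin 4N, while COL5A1 stayed between 0.494 and 1.11 RPM. COL5A2 rose by 0.57 ± 0.07 at 4N and 0.63 ± 0.07 at 2N. The changes of COL5A1 were 0.29 ± 0.15 and 0.27 ± 0.15 and passed in no comparison, though without control 4N replicate 1 the 4N change did (0.49, limma adjusted p = 0.00809). Per exonic kb, COL1A2 was 0.000495 ± 0.00013 times COL1A1 in control 2N and COL5A1 was 0.00268 ± 0.000191 times COL5A2.

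COL12A1, a collagen that decorates fibrils, was at 399, 512 and 398 RPM in control 2N and 293, 334 and 318 in control 4N. After the siRNA it was at 491, 542 and 627 in Anillin 2N, and in Anillin 4N 488, 439 and 463. All control 4N libraries lay below those of the other groups. The gene rose by 0.56 ± 0.09 at 4N and 0.35 ± 0.09 at 2N and was lower in control 4N than in control 2N, at -0.46 ± 0.09. The 2N rise missed the threshold without Anillin 2N replicate 3 (limma adjusted p = 0.0529). Between the Anillin fractions its difference was -0.25 ± 0.09 (limma adjusted p = 0.133, and 0.0251 without control 2N replicate 2). COL3A1, the type III chain of distensible tissue, was low: 0.218, 0.319 and 0.227 RPM in control 2N, 0.251, 0.179 and 0.275 in control 4N, 1.30, 0.710 and 0.622 in Anillin 2N, and in Anillin 4N 0.818, 0.332 and 0.280. COL3A1 rose by 0.84 ± 0.20 at 2N (limma adjusted p = 0.00330), and its change at 4N was 0.37 ± 0.20 (limma adjusted p = 0.125). It passed the filter on low values only through its Anillin 2N libraries and 1 Anillin 4N library. Its entry into the test was therefore not independent of its rise, though it was called with no filter as well.

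Collagen VI forms beaded filaments next to basement membranes from 3 chains, and the 2 tested chains changed in opposite directions at 4N. COL6A1 was at 43.3, 51.2 and 41 RPM in control 2N, 34.3, 38.2 and 36.6 in control 4N, 60.2, 58.9 and 64.8 in Anillin 2N, and in Anillin 4N 55.5, 54.6 and 52.9. It rose by 0.57 ± 0.07 at 4N and 0.44 ± 0.07 at 2N. COL6A3 (ENSG00000163359, chromosome 2 from 237324003 to 237414375 on the minus strand) was at 13.9, 16.0 and 13.7 in control 2N, 14.2, 15.8 and 16.1 in control 4N, 11.9, 12.1 and 13.9 in Anillin 2N, and in Anillin 4N 9.87, 10.8 and 10.9. Its Anillin 4N libraries were below all others, and it fell, at -0.53 ± 0.08 at 4N (limma adjusted p = 3.64e-05), with -0.19 ± 0.08 at 2N (limma adjusted p = 0.0994, and 0.0420 without Anillin 2N replicate 3). Its interaction of -0.33 ± 0.12 passed without control 2N replicate 2 (0.0226) or control 4N replicate 1 (0.0471). COL6A2 had 10, 1 and 10 reads in control 2N and 0, 8 and 6 in control 4N, where 0 of 24943099 reads in replicate 1 allows up to 0.125 RPM by counting error alone. In Anillin 2N it had 5, 4 and 2 reads and in Anillin 4N 1, 2 and 6.

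Of the 6 basement membrane and network collagens, 4 rose with the siRNA at 4N and 5 at 2N, and COL8A1 rose at neither. COL4A1 and COL4A2 encode the ubiquitous chains of type IV collagen and lie head to head on chromosome 13 around a shared promoter. COL4A1 was at 462, 458 and 428 RPM in control 2N, 363, 363 and 381 in control 4N, 622, 660.4 and 827 in Anillin 2N, and in Anillin 4N 535, 546 and 627, and COL4A2 at 616, 623 and 606, at 589, 566 and 619, at 774, 752 and 899 and at 704, 712 and 768 in the same order. For both genes the Anillin libraries lay above the controls of the same DNA content. COL4A1 rose by 0.62 ± 0.08 at 4N and 0.64 ± 0.08 at 2N, and COL4A2 by 0.30 ± 0.06 and 0.39 ± 0.06. COL4A1 differed by -0.30 ± 0.08 between Anillin 4N and Anillin 2N (limma adjusted p = 0.0394), a call lost without Anillin 2N replicate 2 (0.0625), Anillin 2N replicate 3 (0.194), Anillin 4N replicate 1 (0.155), Anillin 4N replicate 2 (0.165) or control 4N replicate 3 (0.0565). The gene models overlap by 1422 bases on opposite strands.

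COL4A5 and COL4A6 are another head-to-head pair, on chromosome X, and were at unequal levels. COL4A5 (ENSG00000188153, chromosome X from 108439844 to 108697545 on the plus strand) was at 82.4, 102 and 79.0 RPM in control 2N, 59.1, 81.0 and 70.5 in control 4N, 112, 126 and 127 in Anillin 2N, and in Anillin 4N 122, 125 and 121, all 6 Anillin libraries above all 6 controls. It rose by 0.81 ± 0.09 at 4N (limma adjusted p = 7.84e-07) and 0.48 ± 0.09 at 2N. In control cells its 4N level was lower, at -0.32 ± 0.09 (limma adjusted p = 0.0109), which missed the threshold without control 2N replicate 2 (0.0596) or control 4N replicate 1 (0.0897). COL4A6 was at 1.51 ± 0.209 RPM in control 2N and 2.33 ± 0.145 in Anillin 2N, a rise of 0.49 ± 0.13, and its change at 4N was 0.29 ± 0.13 (limma adjusted p = 0.0642, and 0.0405 without control 4N replicate 3). Leaving out control 2N replicate 3 or control 4N replicate 2 brought the interaction of COL4A5 past the threshold (0.0465 and 0.0139).

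COL18A1, the source of endostatin, was at 30.2, 31.1 and 32.2 RPM in control 2N, 30.4, 32.2 and 35.5 in control 4N, 49.0, 42.5 and 46.2 in Anillin 2N, and in Anillin 4N 51.4, 49.0 and 50.1. It rose by 0.61 ± 0.06 at 4N and 0.55 ± 0.06 at 2N, with 0.07 ± 0.06 between the control fractions (limma adjusted p = 0.416). The gene overlaps SLC19A1 (9.505 RPM, log2 change -0.51 at 4N) over 20149 bases on the other strand. COL8A1, a short-chain network collagen of Descemet's and Bruch's membranes, was at 545, 614 and 529 in control 2N and 437, 455 and 449 in control 4N. Its Anillin 2N libraries were at 490.0, 507 and 574 and Anillin 4N at 413, 402 and 434. COL8A1 was lower at 4N than at 2N both in controls (-0.33 ± 0.06, limma adjusted p = 0.000489) and after the siRNA (-0.33 ± 0.06, limma adjusted p = 0.00365), and the siRNA changes of -0.10 ± 0.06 and -0.10 ± 0.06 did not pass.

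The other tested laminin chains had smaller changes after the siRNA than LAMA5, at most 0.37 at 4N. LAMB1, LAMB2 and LAMC1 encode the beta 1, beta 2 and gamma 1 chains shared by most laminins. LAMB1 was at 709 ± 57.9 RPM in control 2N, 575 ± 30.2 in control 4N, 762 ± 27.5 in Anillin 2N and 685 ± 6.09 in Anillin 4N, and rose by 0.25 ± 0.06 at 4N. At 2N its change was 0.11 ± 0.06, which passed only without control 2N replicate 2 (0.17, limma adjusted p = 0.0220). LAMB1 overlaps DLD (65.6 RPM, log2 change -0.62 at 4N) over 7932 bases on the other strand. LAMC1, at 412 ± 12.2 in control 4N and 529.6 ± 16.1 in Anillin 4N, rose by 0.36 ± 0.08 at 4N and 0.41 ± 0.08 at 2N. LAMB2, at 267 ± 15.1 in control 4N and 332 ± 11.0 in Anillin 4N, rose by 0.31 ± 0.05 at 4N. Its rise of 0.15 ± 0.05 at 2N (limma adjusted p = 0.0469) was lost when any single library of these groups other than control 2N replicate 2 was left out (limma adjusted p from 0.0612 to 0.153), and also without control 4N replicate 2 or any single Anillin 4N library (0.0517 to 0.0596).

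LAMA4, the alpha 4 chain of mesenchymal and vascular laminins, was at 138, 192 and 137 RPM in control 2N, 100.3, 120.1 and 110.1 in control 4N, 182, 197 and 197 in Anillin 2N, and in Anillin 4N 141, 147 and 139.9. Control 2N replicate 2 stood above the other control 2N libraries, and within each siRNA all 4N libraries were below all 2N libraries. LAMA4 was lower at 4N than at 2N in controls (-0.48 ± 0.09) and after the siRNA (-0.43 ± 0.09, limma adjusted p = 0.00925), and rose with the siRNA by 0.37 ± 0.09 at 4N and 0.32 ± 0.09 at 2N (limma adjusted p = 0.0150). The 2N rise was lost on leaving out control 2N replicate 1, control 2N replicate 3, Anillin 2N replicate 2 or Anillin 2N replicate 3 (limma adjusted p 0.0897, 0.0918, 0.0578 and 0.0544). The difference between the Anillin fractions was lost without Anillin 2N replicate 2 (0.0524) or replicate 3 (0.0513). LAMA3 and LAMB3, chains of an epithelial laminin, were at 1.56 ± 0.207 and 17.2 ± 1.12 RPM in control 2N and passed in neither siRNA comparison. At 4N, LAMB3 passed after quantile scaling (limma adjusted p = 0.0316) and without the authors' scaling (0.0098). LAMA3 was lower in control 4N, at -0.38 ± 0.14 (limma adjusted p = 0.0394), a call lost without any single control library except control 2N replicate 2, from 0.0596 without control 4N replicate 2 to 0.151 without control 2N replicate 3. LAMA1 was at 0.164 to 0.334 RPM (3 to 14 reads per library) and was not tested.

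Nidogen 1 (NID1, ENSG00000116962, chromosome 1 from 235975830 to 236065162 on the minus strand) was the only member called higher in control 4N than in control 2N. Its libraries were at 60.7, 62.4 and 60.9 RPM in control 2N, 71.6, 71.2 and 72.5 in control 4N, 82.6, 87.3 and 103 in Anillin 2N, and in Anillin 4N 98.6, 101 and 107, with no overlap between control 2N, control 4N and the Anillin groups. The control difference was 0.23 ± 0.06 (limma adjusted p = 0.00850), and 0.14 on deposited RPKM (0.0550) and 0.12 after quantile scaling (0.146). NID1 rose with the siRNA by 0.51 ± 0.06 at 4N and 0.56 ± 0.06 at 2N. AGRN encodes agrin, a heparan sulfate proteoglycan. It was at 512 ± 18.9 RPM in control 2N, 456 ± 37.6 in control 4N, 643 ± 42.7 in Anillin 2N and 641 ± 17.6 in Anillin 4N, and rose by 0.49 ± 0.06 and 0.33 ± 0.06. The gene contains an intronic transcript of the same strand (113 RPM), with which it may share reads. Its control difference of -0.17 ± 0.06 (limma adjusted p = 0.0357) was lost without control 2N replicate 3 (0.122), control 4N replicate 1 (0.0849) or control 4N replicate 2 (0.183).

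**Figure D4:**
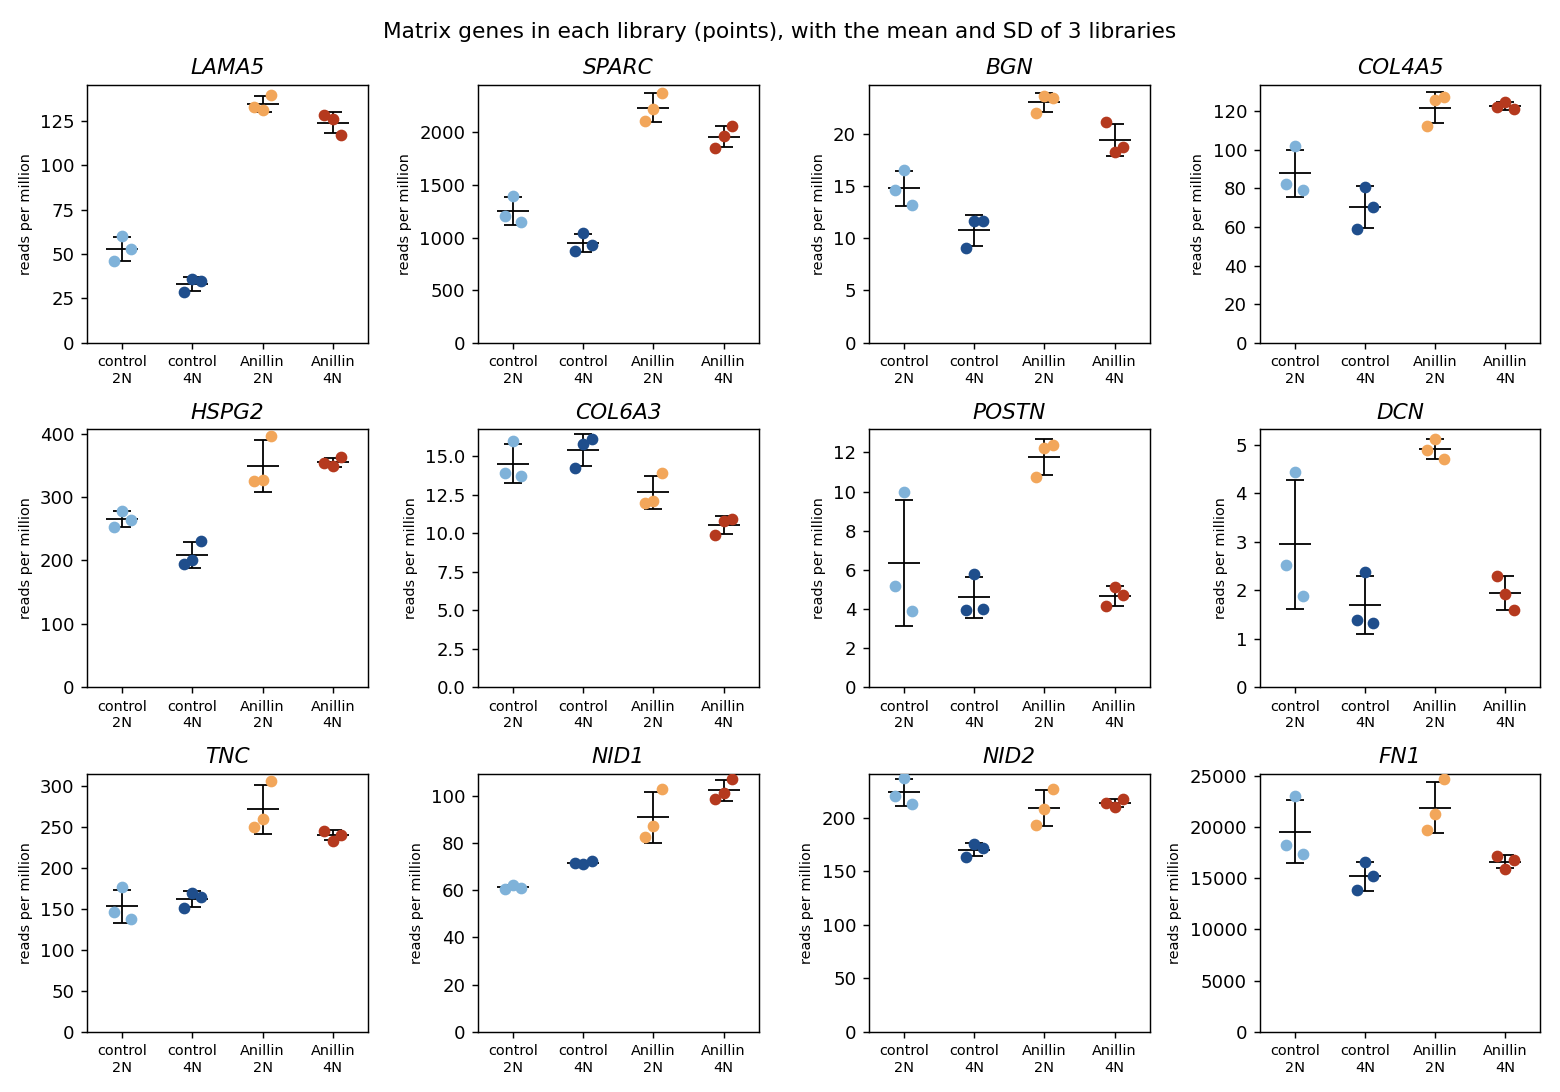
Level, in RPM, of 12 matrix genes in each library (points), with the mean and SD of the 3 libraries of a group, each axis starting at 0. LAMA5, SPARC and BGN are higher in all Anillin libraries than in all controls, POSTN and DCN are highest in Anillin 2N, and COL6A3 is lowest in Anillin 4N.

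SPARC (ENSG00000113140, chromosome 5 from 151661096 to 151687165 on the minus strand), a collagen-binding counter-adhesive glycoprotein, had the second largest rise at 4N among members. It was at 1206, 1398 and 1147 RPM in control 2N, 869, 1044 and 932 in control 4N, 2103, 2221 and 2374 in Anillin 2N, and in Anillin 4N 1854, 1963 and 2062. All Anillin libraries were above all controls. The change was 1.05 ± 0.08 at 4N (limma adjusted p = 2.8e-09) and 0.84 ± 0.08 at 2N (limma adjusted p = 2.94e-07), and control 4N was lower than control 2N, at -0.40 ± 0.08. TNC was at 146, 176 and 137 in control 2N, 151, 169.7 and 165 in control 4N, 250.3, 259.6 and 307 in Anillin 2N, and in Anillin 4N 246, 234 and 241, every Anillin library above every control. It rose by 0.57 ± 0.08 at 4N and 0.83 ± 0.08 at 2N, and its control fractions differed by 0.08 ± 0.08 (limma adjusted p = 0.434, and 0.0420 with a change of 0.19 without control 2N replicate 2).

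FN1, the most abundant member, passed in neither siRNA comparison. It was at 18210, 23060 and 17380 RPM in control 2N, 13810, 16620 and 15180 in control 4N, 19750, 21310 and 24660 in Anillin 2N, and in Anillin 4N 17170, 15910 and 16760, so that siRNA groups of the same DNA content overlapped. Its siRNA changes were 0.13 ± 0.12 at 4N and 0.17 ± 0.12 at 2N (limma adjusted p = 0.390 and 0.336). It was lower in control 4N than in control 2N, at -0.36 ± 0.12 (limma adjusted p = 0.0274). That call was lost without control 2N replicate 2 (0.157), control 4N replicate 1 (0.136) or control 4N replicate 3 (0.0708), and quantile scaling set the difference to 0.00. After the siRNA, 4N against 2N was -0.39 ± 0.12 (limma adjusted p = 0.0724, and 0.0455 without Anillin 2N replicate 1 and 0.0268 without control 2N replicate 2).

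Of the elastic fibre genes, EFEMP1 (ENSG00000115380, chromosome 2 from 55865967 to 55924139 on the minus strand) was at 280.5, 321 and 256 RPM in control 2N, 199, 229.8 and 206 in control 4N, 396, 423 and 435 in Anillin 2N, and in Anillin 4N 346, 349 and 353. The 4 groups did not overlap. It rose by 0.73 ± 0.07 at 4N and 0.55 ± 0.07 at 2N and was lower at 4N than at 2N in controls (-0.43 ± 0.07) and after the siRNA (-0.26 ± 0.07, limma adjusted p = 0.0372). The latter call held without Anillin 2N replicate 1 and was lost without any other single Anillin library (limma adjusted p 0.0873 without Anillin 4N replicate 3 to 0.151 without Anillin 2N replicate 3) and without control 4N replicate 3 (0.0546). FBN1, the core of microfibrils, was at 1120 ± 81.6 in control 4N and 1470 ± 71.8 in Anillin 4N and rose by 0.39 ± 0.10 at 4N, while 0.23 ± 0.10 at 2N did not pass (limma adjusted p = 0.0897). Leaving out control 2N replicate 2 brought the 2N rise past the threshold (0.32, limma adjusted p = 0.00903), as did leaving out Anillin 2N replicate 1 (0.0188). FBLN1, at most 0.305 RPM, was not tested, and its 0 of 22276820 reads in Anillin 2N replicate 3 allow up to 0.133 RPM.

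Biglycan and decorin, close relatives among the small leucine-rich proteoglycans that bind collagen, differed in pattern. BGN (ENSG00000182492, chromosome X from 153494939 to 153509554 on the plus strand) was at 14.6, 16.5 and 13.2 RPM in control 2N, 9.06, 11.6 and 11.6 in control 4N, 22.0, 23.6 and 23.4 in Anillin 2N, and in Anillin 4N 21.1, 18.2 and 18.7, and rose by 0.82 ± 0.10 at 4N (limma adjusted p = 8.21e-07) and 0.63 ± 0.10 at 2N. It overlaps HAUS7 (9.66 RPM) over 578 bases on the other strand. DCN was at 2.53, 4.43 and 1.88 in control 2N, 1.38, 2.38 and 1.33 in control 4N, 4.89, 5.12 and 4.71 in Anillin 2N, and in Anillin 4N 2.29, 1.93 and 1.60. Anillin 2N was above all other groups, as for POSTN, and control 2N replicate 2 was again the highest control. Among Anillin cells the 4N level of DCN was below the 2N level, with a log2 difference of -1.15 ± 0.21 (limma adjusted p = 0.00170), and its change at 4N was 0.18 ± 0.21 (limma adjusted p = 0.499). Its 2N rise of 0.72 ± 0.21 was lost without control 2N replicate 1 (0.0525) or replicate 3 (0.0992). Its control difference of -0.62 ± 0.21 was lost without control 2N replicate 2 (-0.32, limma adjusted p = 0.169), control 4N replicate 1 (0.1001) or control 4N replicate 3 (0.110).

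LUM, the keratan sulfate proteoglycan lumican, was at 1.20, 2.55 and 1.51 RPM in control 2N, 0.668, 1.08 and 0.711 in control 4N, 1.87, 2.03 and 1.95 in Anillin 2N, and in Anillin 4N 1.15, 1.22 and 1.32. It was lower in control 4N than in control 2N, at -0.74 ± 0.17 (limma adjusted p = 0.00233), the largest such difference among members. VCAN was at 2075, 2818 and 1912 in control 2N, 1420, 1755 and 1568 in control 4N, 1898, 2135 and 2433 in Anillin 2N, and in Anillin 4N 1859, 1715 and 1787. Control 4N was below control 2N, at -0.51 ± 0.12 (limma adjusted p = 0.00187), and neither gene passed in a comparison of siRNAs, where the changes at 4N were 0.40 ± 0.17 for LUM and 0.18 ± 0.12 for VCAN. That of LUM passed without control 4N replicate 2 (0.54, limma adjusted p = 0.0213), control 2N replicate 1 (0.0401) or control 2N replicate 2 (0.0186). It also passed with a pseudocount of 0.1 RPM (0.0461), without the authors' scaling (0.0299) and in a fit of these 2 groups alone (0.0391). That of VCAN passed after quantile scaling (0.0343), without the authors' scaling (0.0446) and in the fit of 2 groups (0.0235). Without control 2N replicate 2 the difference of LUM between the Anillin fractions, -0.51 ± 0.17, passed as well (0.0268).

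Few comparisons passed for the lysyl oxidases, which crosslink collagen and elastin. LOXL2 was at 356 ± 17.1 RPM in control 2N, 364 ± 27.1 in control 4N, 381 ± 23.3 in Anillin 2N and 363 ± 11.0 in Anillin 4N and passed in no comparison. Its gene shares 39546 bases of the same strand with ENTPD4 (118 RPM), so its counts are uncertain. LOXL1 rose by 0.19 ± 0.05 at 4N, from 207 ± 7.73 to 236 ± 11.5, and was lower in control 4N than in control 2N, at -0.23 ± 0.05. On the other strand LOXL1 overlaps LOXL1-AS1 (29.8 RPM) over 2260 bases, and LOX overlaps SRFBP1 (15.4 RPM) over 12376. Without control 2N replicate 2, LOX was higher in control 4N than in control 2N (0.16, limma adjusted p = 0.0328), against 0.11 ± 0.06 with it. LOX, at 269.7 ± 17.8 in control 2N and 306 ± 20.5 in Anillin 2N, rose by 0.18 ± 0.06 at 2N (limma adjusted p = 0.0189), a call lost without control 2N replicate 1 (0.0516), control 2N replicate 3 (0.111) or Anillin 2N replicate 3 (0.101). Its change of 0.03 at 4N passed only after quantile scaling (0.19, limma adjusted p = 0.00536) and without the authors' scaling (0.13, limma adjusted p = 0.0460).

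Ratios of related chains, chosen after their values were seen, do not depend on the scaling between libraries. LAMA5 relative to LAMA4, per exonic kb, was 0.269, 0.253 and 0.311 in control 2N, 0.232, 0.242 and 0.257 in control 4N, 0.591, 0.537 and 0.574 in Anillin 2N, and in Anillin 4N 0.738, 0.696 and 0.678. The Anillin libraries did not overlap the controls, and Anillin 4N lay above Anillin 2N. COL6A3 relative to COL6A1 was 0.0877 ± 0.00313 in control 2N, 0.115 ± 0.00419 in control 4N, 0.0561 ± 0.00216 in Anillin 2N and 0.0528 ± 0.00398 in Anillin 4N. COL4A2 relative to COL4A1 was 1.05 ± 0.0328, 1.22 ± 0.0281, 0.883 ± 0.0612 and 0.979 ± 0.0374 in the same order, highest in control 4N and lower with the siRNA at either DNA content. NID1 relative to NID2 was 0.299 ± 0.0124 in control 2N, 0.460 ± 0.0177 in control 4N, 0.472 ± 0.0202 in Anillin 2N and 0.522 ± 0.0170 in Anillin 4N, lowest in control 2N. These 4 were picked from 9 ratios for their differences, so a test of them is not independent of the choice. Exact permutation tests of 3 against 3 libraries, whose smallest possible p is 0.1, could not pass the threshold (adjusted p 0.123 to 0.3). The ratios are therefore only described. LAMB2 relative to LAMB1 stayed between 0.519 and 0.590 in all libraries.

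**Figure D5:**
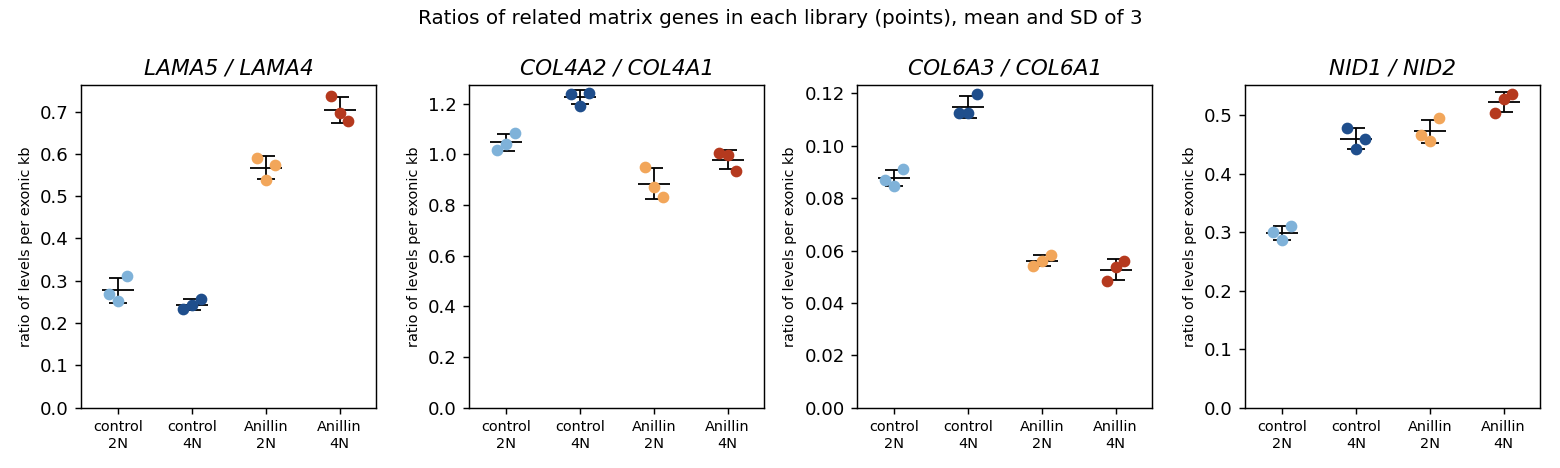
Ratios of 4 pairs of related matrix genes (levels per kb of merged exons) in each library, with the mean and SD of 3 libraries, each axis starting at 0. LAMA5 relative to LAMA4 is above 0.5 in every Anillin library and at most 0.311 in the controls, and COL6A3 relative to COL6A1 is lower in every Anillin library than in every control.

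Anillin 4N and control 2N had G2 and mitosis marker sums in the same range (1130 to 1235 and 1037 to 1509 RPM), with 2 of the 25 markers higher and 5 lower and a median of 0.02. The comparison of their matrix genes was added after this had been seen. Of 37 tested members, 17 were higher in Anillin 4N and 3 lower, against 14.4% and 17.7% of all genes (32.1% called), with a median of 0.22 against -0.01 over all genes. Without the authors' scaling 18 were higher and 2 lower, while the share of higher genes among all called genes moved from 44.9% to 56.2%. Every Anillin 4N library was above every control 2N library for 19 of the 37 and below for 4 (20.0% and 22.8% of all genes).

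Other genes of the matrix pathway were read from lists chosen by function. Of 18 tested further collagens, 12 were higher and 2 lower after Anillin siRNA at 4N, with a median of 0.58. The shares to set beside this and the next 4 lists are 24.5% higher and 28.1% lower among all tested genes. COL16A1, a fibril-associated collagen, went from 21.6 ± 1.54 to 47.5 ± 1.55 RPM (1.12 ± 0.06), and COL14A1 from 7.82 ± 2.12 to 16.2 ± 1.87 (1.03 ± 0.20). Of 28 further laminins, basement membrane proteins and glycoproteins, 15 were higher and 2 lower (median 0.23). The microfibril protein MFAP4 (1.86 ± 0.15) and the latent TGF-beta binding protein LTBP2 (0.74 ± 0.07) rose. THBS1, the matricellular protein thrombospondin 1, fell from 2050 ± 106 to 1233 ± 151 RPM (-0.74 ± 0.11), as did FBLN7 (-0.46 ± 0.08).

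Of 31 genes of collagen synthesis, folding and crosslinking, 17 were higher and 7 lower (median 0.24). The prolyl 3-hydroxylase P3H2 rose by 0.98 ± 0.06 and the collagen galactosyltransferase COLGALT2 by 0.82 ± 0.08. SEC23A, a coat protein of the vesicles that carry cargo from the endoplasmic reticulum, fell from 164 ± 3.35 to 68.9 ± 3.01 RPM (-1.25 ± 0.05), and the endoplasmic reticulum cation channel TMEM38B by -0.62 ± 0.11. Of 35 matrix proteases and inhibitors, 19 were higher and 5 lower (median 0.27), with ADAMTS7 at 1.53 ± 0.07, MMP19 at 1.26 ± 0.09, the cathepsin CTSL at -0.39 ± 0.05 and ADAM15 at -0.35 ± 0.07. Of 30 matrix receptors, 15 were higher and 7 lower (median 0.17): the integrin chains ITGA10 (1.22 ± 0.10), a collagen receptor subunit, and ITGB4 (0.81 ± 0.10), a laminin receptor subunit, rose, while CD47 (-0.95 ± 0.07), a receptor of thrombospondin 1, and the syndecan SDC1 (-0.45 ± 0.07) fell.

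In 2N cells the counts of higher and lower genes after the siRNA were 8 and 1 of 18 for the further collagens, 11 and 2 of 28 for the glycoprotein list, 14 and 7 of 31 for synthesis, 17 and 6 of 35 for proteases, and 12 and 2 of 30 for receptors (12.6% and 17.0% of all genes). Between control 4N and control 2N they were 1 and 8, 2 and 11, 2 and 16, 5 and 13, and 5 and 12 in the same order (21.3% and 19.5% of all genes). Within Anillin cells, 4N against 2N gave 3 and 2, 1 and 3, 0 and 5, 1 and 1, and 3 and 2 (3.38% and 2.19% of all genes). The medians of the 5 lists were above that of all genes in both siRNA comparisons and below it between the control fractions.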

How the data were processed

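RNA of 12 libraries was sequenced, 3 per group. The authors deposited RPKM values for 57773 gene identifiers. The submitters' processing notes name hg19, TopHat2, CASAVA 1.8.2 and edgeR, without saying what each was used for. The annotation, and the use of strand in counting, were not given in the sources used here. A stranded mRNA kit was used, per the labels' protocols, while another label describes ribo-depleted RNA, so the RNA selection is unsure.

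The deposited RPKM divides reads by the genomic span of a gene, introns included. Of 38571 genes above 0, the 12 values of 29237 were whole multiples of 1 read at the span in GENCODE 29 (tolerance 0.01 read), and 9334 at a common divisor of their own values. The latter gave whole-base lengths for 100% of the 6523 genes detected in every library. RPKM was turned into RPM, keeping the authors' scaling between libraries (0.951 to 1.04). Library depth was 17412742 to 61760451 recovered reads, and limits from counts of 0 (3 reads) cover counting error only.

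Genes with at least 0.5 RPM in at least 3 of 12 libraries (19591 genes, 37 of the 41 members) were tested with limma-trend (limma 3.58.1, R 4.3.3) on log2(RPM + 0.5), with 1 mean per group over all libraries. Changes are on this log2 scale and understate those of low genes. Two-sided p-values were adjusted over all 19591 genes (Benjamini-Hochberg, threshold 0.05). The fit was also run on simulated counts, drawn independently for each gene with 1 dispersion for all genes. Such counts lack the shared variation among libraries described above, so that run checks the code and not the p-values given here. Symbols were matched to identifiers through a gene name table and GENCODE 29, and coordinates are GRCh38, a later build than the submitters name. Promoter windows are from RefSeq (GRCh38.p14). Values were tabulated with pandas 2.3.3 and numpy 2.4.6 and drawn with matplotlib 3.10.9.

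Values in every library are given for members past the threshold, without overlap between the groups and among the 5 largest rises or falls in a comparison, for interaction members and for the 3 highest per exonic kb. Of other matrix lists, group levels or log2 changes are given for the 2 largest rises and falls in 4N cells with at least 5 RPM. Per-library values of COL6A1, COL4A1, COL4A2 and COL18A1 were added after they were seen. The members and lists were chosen with earlier results of these data known. Replicates were numbered in order of deposit, and libraries of a group differed beyond sampling noise. Alternatives were another pseudocount, filter or scaling, the deposited RPKM, limma-voom on recovered reads, fits of 2 groups only, and leaving out each library.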

Additional observations from a re-analysis of the deposited data

Results flagged for a closer look

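The siRNA change differed between 4N and 2N cells for 4 matrix genes, by the test of that difference (limma, 4N change minus 2N change on the log2 scale). These are 4 of 37 tested members, a smaller share than the 18.5% called among all genes. The siRNA change was greater at 4N for LAMA5 (0.54), NID2 (0.42) and HSPG2 (0.38). For POSTN the difference was -0.90, with the rise called at 2N and not at 4N, and this call was lost when any single library other than control 2N replicate 2 was left out. In the first 3 genes the control 4N libraries were the lowest of the 4 groups, and in POSTN the Anillin 2N libraries were the highest. The 25 markers of G2 and mitosis also had a negative median interaction, -1.09 (23 of 25 lower), and their part in these differences was not tested.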

How the results depend on the processing

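No paired analysis was possible because no label links a library of one group to a library of another. No call of a member changed direction under any alternative. The count in Anillin 4N against Anillin 2N, 6 members, was 3 with no filter on low values and 1 on deposited RPKM, where 26 of the 41 members could be tested, and 3 to 9 when a single library was left out (3 to 7 for Anillin libraries, 9 without control 2N replicate 2). The interaction count, 4 members, was 2 with no filter, 1 on deposited RPKM, 10 after quantile scaling, 8 without the authors' scaling, and 3 to 7 when a library was left out (7 without control 2N replicate 2). When a library was left out, the counts of 24 ranged over 24 to 25 for Anillin against control at 4N, 20 to 26 at 2N, and 19 to 24 between the control fractions, and the count of 20 for Anillin 4N against control 2N over 18 to 22. Leaving out libraries of groups outside a comparison was added after seeing the data. Fewer members tested accounts for part of the loss on deposited RPKM, and the cause of the other shifts was not tested. Depth limits COL1A2, COL6A2, LAMA1 and FBLN1, with 0 to 14 reads per library.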

Other observations

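In Anillin 4N against control 2N, where 14.4% of all genes were higher and 17.7% lower, 5 of 6 basement membrane and network collagens were higher, among them COL18A1 (0.68 ± 0.06), COL4A5 (0.49 ± 0.09) and COL4A1 (0.34 ± 0.08), as were 3 of 4 linkers and proteoglycans of the basement membrane, NID1 (0.73 ± 0.06), HSPG2 (0.42 ± 0.07) and AGRN (0.32 ± 0.06), with NID2 at -0.07 ± 0.06. LAMA5 was higher by 1.23 ± 0.08 (limma adjusted p = 4.32e-09), SPARC by 0.65 ± 0.08 and TNC by 0.65 ± 0.08. COL8A1 (-0.43 ± 0.06), COL6A3 (-0.44 ± 0.08) and VCAN (-0.32 ± 0.12) were lower. FN1 (-0.22 ± 0.12) and FBN1 (-0.02 ± 0.10) did not pass.

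Of the 20 calls, 18 held under every other setting in which the gene could be tested. VCAN missed the threshold without control 2N replicate 2 (-0.16, limma adjusted p = 0.204), without any single Anillin 4N library, with no filter, on deposited RPKM, under each other scaling, and on leaving out either control 4N replicate 3 or Anillin 2N replicate 2. COL4A6, higher by 0.35 ± 0.13, missed it on leaving out control 2N replicate 1, control 2N replicate 2, Anillin 4N replicate 1 or Anillin 4N replicate 3 (limma adjusted p from 0.0647 to 0.171). It also missed it with no filter, with limma-voom and in a fit of these 2 groups alone, and without Anillin 2N replicate 1 or 2. Among members not called, LUM, DCN and POSTN became lower without single control 2N libraries (limma adjusted p 0.0360 for LUM without replicate 1, 0.0198 for DCN and 0.0315 for POSTN without replicate 3), and COL12A1 and LOX became higher without replicate 2 (0.0333 and 0.0115). LOX also passed without Anillin 2N replicate 1 or 3 (0.0496 and 0.0385), after quantile scaling and without the authors' scaling.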
